A study of Mus musculus with 2 samples.

Results

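The genes described here encode the machinery that presents peptides on major histocompatibility complex (MHC) class I molecules, and they comprise 10 of the 37008 gene names on the array. They are H2-K1, H2-D1, H2-T23, B2m, Tap1, Tap2, Tapbp, Psmb8, Psmb9 and Nlrc5. All non-control probes whose gene name in the scanner files is one of these were taken, which gave 18 of 56601 probes. The rule uses gene names and no measured value. RNA came from dorsal root ganglion (DRG) neurons of C57BL/6 mice and was labelled with Cy3. The Dock8-/- sample carried no intact copy of Dock8, which encodes an activator of small GTPases that leukocytes use to migrate, and was labelled as having a high level of interleukin-31 (IL-31), an itch cytokine. The Dock8+/- sample was heterozygous and was labelled as having a low IL-31 level. Both carried the AND T cell receptor transgene, which gives T cells that see a peptide on MHC class II. Each group was 1 array. The age, the sex, the number of animals pooled and the cells left in the neuron preparation are not given in the labels.

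A class I molecule is a heavy chain paired with the light chain beta-2-microglobulin and a short peptide. Proteasomes cut cytosolic proteins into peptides, the TAP transporter carries these into the endoplasmic reticulum, and tapasin holds the empty heavy chain at the transporter until a peptide fits. NLRC5 is the transactivator that switches on many of these genes, and interferon raises them in most cell types. Neurons are known for low class I levels compared with macrophages and endothelial cells, so a ganglion extract can hold class I transcripts from several cell types. In bulk RNA of this kind, fewer cells of a type and less RNA per cell cannot be told apart.

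The array reads each transcript with probes of 60 bases, and the differences below rest on these sequences. The brighter or sole probe of each gene is shown here, 5′ to 3′ as the scanner files give it, with its position on mouse build mm9.
H2-K1 (chr17:34133055-34133114, minus strand): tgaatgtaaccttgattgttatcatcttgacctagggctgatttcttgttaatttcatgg
H2-D1 (chr17:35403886-35403945, plus strand): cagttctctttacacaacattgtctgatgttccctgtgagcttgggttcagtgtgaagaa
B2m (chr2:121978401-121978460, plus strand): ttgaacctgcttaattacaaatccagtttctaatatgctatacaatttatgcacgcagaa
Tap1 (chr17:34334022-34334081, plus strand): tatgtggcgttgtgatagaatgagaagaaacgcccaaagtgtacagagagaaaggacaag
Tap2 (chr17:34353116-34353175, plus strand): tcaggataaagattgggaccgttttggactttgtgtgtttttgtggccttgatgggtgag
Tapbp (chr17:34066022-34066081, plus strand): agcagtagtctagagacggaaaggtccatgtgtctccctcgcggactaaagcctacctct
Psmb8 (chr17:34337771-34337830, plus strand): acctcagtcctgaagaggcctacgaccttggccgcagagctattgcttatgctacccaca
Psmb9 (chr17:34319174-34319233, minus strand): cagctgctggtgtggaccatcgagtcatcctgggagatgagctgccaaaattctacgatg
Nlrc5 (chr8:97051105-97051164, plus strand): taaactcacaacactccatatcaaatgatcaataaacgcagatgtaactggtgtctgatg
The brighter H2-T23 probe and the second H2-K1 probe are shown apart because they share a run of 29 bases, given in capitals.
H2-K1 second probe (chr17:34133984-34134043, minus strand): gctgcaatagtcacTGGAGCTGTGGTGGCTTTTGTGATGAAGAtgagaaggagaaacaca
H2-T23 brighter probe (chr17:36167338-36167574, minus strand): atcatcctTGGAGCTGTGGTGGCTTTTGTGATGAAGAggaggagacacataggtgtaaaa
The 237 bases between the ends of the brighter H2-T23 probe are more than its 60 bases, as are the 147 bases spanned by the second Nlrc5 probe. The same H2-T23 probe shares a run of 31 bases with a probe named H2-L, a further class I heavy chain gene. Class I heavy chain genes are close copies of each other, so signal of one may reach the probe of another, and no transcript sequences were used here to measure that. Of the 10 genes, 8 lie on chromosome 17, in the H2 region, while B2m lies on chromosome 2 and Nlrc5 on chromosome 8.

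The Dock8-/- array was dimmer as a whole, which bears on every value. The 75th percentile of processed intensity was 145.6 for Dock8-/- RNA and 303.8 for Dock8+/- RNA. Feature Extraction marked 50.7% of Dock8-/- probes and 56.9% of Dock8+/- probes as well above background. Differences are therefore given as log2(processed intensity) minus the 75th percentile of the array, Dock8-/- minus Dock8+/-, and called scaled. From 298 probes printed as at least 10 spots, spot error alone gave a scaled difference an SD of 0.0635. Those probes were well above background on both arrays, so the SD may understate the error of dim probes. The errors that Feature Extraction assigns to single spots, given below, are wider. Different probes of one gene varied more. Over 4238 genes with exactly 2 measured probes, the median gap between their differences was 0.51. With 1 array per genotype there is no replicate check and no test, and the number of arrays limits the precision. Of 5 probes for Dock8 itself, 0 were well above background in the Dock8-/- sample and 1 was in the Dock8+/- sample. That probe had intensities of 6.87 in Dock8-/- and 20.5 in Dock8+/-. After scaling, its Dock8+/- value lay below the lowest detectable Dock8-/- signal, so it does not check the genotype. Another probe, well above background on neither array, had 12.1 in Dock8-/- and 3.89 in Dock8+/-. The labels do not say which part of Dock8 is deleted, so it is not known whether the probes lie in it. Of the listed DRG neuron markers, 16 of 16 were measured on both arrays, with Tubb3, a neuronal tubulin, at a processed intensity of 14013 in Dock8-/- and 26342 in Dock8+/-.

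Class I presentation genes differed unequally between the samples. All 10 genes had a probe well above background on both arrays. On the scale of the 75th percentile, Psmb9 was 2.53-fold lower in the Dock8-/- sample, H2-D1 and H2-T23 were each 1.59-fold lower, H2-K1 and B2m lay close to 0, and Nlrc5 was 1.40-fold higher, though lower before scaling and on the spike-in scale. In all, 8 genes lay below 0 and 2 above, against 48.2% of all measured genes below 0. The median was -0.34 over the 10 genes and 0.03 over all 18649 measured genes. At least a 2-fold difference was seen as a lower value for 1 gene of 10, beside a background of 7.03% of measured genes, and as a higher value for 0 of 10, beside 9.08%. By probe, 1 of 14 probes well above background on both arrays was at least 2-fold lower, beside 7.06%, and 0 were at least 2-fold higher, beside 11.8%. These shares lie near the background, so a 2-fold size did not set these genes apart. The directions depend on scaling. As processed intensities, before scaling, all 14 of these probes were lower in Dock8-/-, by 1.49-fold to 5.28-fold. The scale of spike-in transcripts moved every gene by a further -1.85 relative to the 75th percentile. On that scale all 10 genes were more than 2-fold lower, beside 87.4% of all measured genes at least 2-fold lower.

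**Figure D1:**
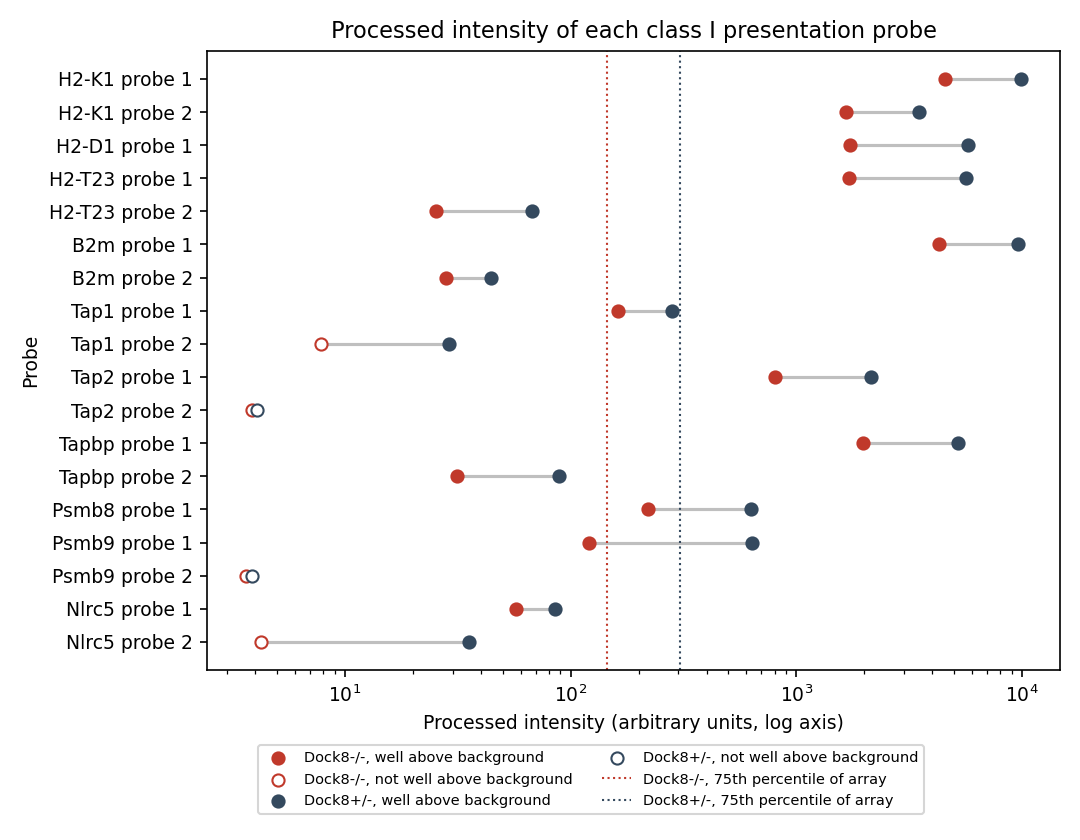
Processed intensity on a log axis of each of the 18 probes on the Dock8-/- array (red) and the Dock8+/- array (dark blue), with open circles where the probe was not well above background and dotted lines at the 75th percentile of each array. Every probe was dimmer on the Dock8-/- array, as was the array as a whole, whose 75th percentile was 145.6 against 303.8.

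The classical heavy chain genes H2-K1 and H2-D1 encode the molecules that show peptides to CD8 T cells. The brighter H2-K1 probe had a processed intensity of 4549 ± 455 in Dock8-/- and 9893 ± 989 in Dock8+/-, where ± is the error that Feature Extraction assigns to a spot. The second probe had 1661 ± 166 in Dock8-/- and 3481 ± 348 in Dock8+/-. Their scaled differences were -0.06 and -0.01, both within the SD of single spots, and turned to 0.09 under quantile normalisation and 0.02 under loess for the brighter probe. H2-D1 was read by 1 probe, with 1726 ± 173 in Dock8-/- and 5737 ± 574 in Dock8+/-. Its scaled difference was -0.67, and 14.05% of measured genes lay at or below that. The classical heavy chains thus differed from each other by more than spot error, though gaps of at least 0.5 were seen in 51.1% of genes with 2 measured probes.

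H2-T23 encodes the heavy chain of Qa-1, a non-classical molecule that shows leader peptides of other class I chains to natural killer cell receptors. Its brighter probe had 1703 ± 170 in Dock8-/- and 5639 ± 563.9 in Dock8+/-, and its second probe, designed on an Ensembl transcript, had 25.4 ± 4.25 in Dock8-/- and 67.4 ± 7.67 in Dock8+/-. The scaled differences were -0.67 and -0.35. The Qa-1 gene was lower on both probes, and the difference on the brighter one lay within spot error of that of H2-D1.

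B2m encodes the light chain shared by all these molecules. Its brighter probe had 4292 ± 429 in Dock8-/- and 9643 ± 964 in Dock8+/-, a scaled difference of -0.11. The second probe, designed on a cDNA clone at another site of the gene, was dim, at 28.1 ± 4.53 in Dock8-/- and 44.5 ± 5.85 in Dock8+/-, with a difference of 0.40. The probes disagreed in direction, and the gene turned to 0.04 under quantile normalisation, to 0.15 as the mean of its probes and to 0.40 with the dimmer one. B2m therefore had no direction that held over the settings tried.

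Tap1 and Tap2 encode the paired subunits of the peptide transporter. The brighter Tap1 probe had 161.5 ± 16.6 in Dock8-/- and 280.4 ± 28.3 in Dock8+/-, a scaled difference of 0.27, which was -0.80 before scaling and -1.59 on the spike-in scale. The other Tap1 probe had 7.83 ± 4.14, not well above background, in Dock8-/- and 29.0 ± 5.16 in Dock8+/-, and after scaling its Dock8+/- value lay below the lowest detectable Dock8-/- signal, so no fold is given. Tap2 had 802.2 ± 80.3 in Dock8-/- and 2144 ± 214 in Dock8+/- on its brighter probe, with a difference of -0.36. The other Tap2 probe lay in the background of both arrays (3.87 in Dock8-/- and 4.08 in Dock8+/-). The transporter subunits thus lay on opposite sides of 0 after scaling.

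Tapbp encodes tapasin, which bridges the heavy chain and the transporter. Its brighter probe had 1983 ± 198 in Dock8-/- and 5212 ± 521 in Dock8+/-, and its second 31.4 ± 5.38 in Dock8-/- and 89.1 ± 10.04 in Dock8+/-. The scaled differences were -0.33 and -0.44. Both tapasin probes gave the same direction, as did each of the scalings tried.

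Psmb8 and Psmb9 encode catalytic subunits that replace the constitutive ones in the immunoproteasome. Psmb9 had a processed intensity of 120.5 ± 12.5 in Dock8-/- and 635.8 ± 63.7 in Dock8+/-. This was the lowest scaled difference of the 10 genes, at -1.34, and 3.64% of all measured genes lay at or below it. It stayed at least 2-fold lower under each scaling and background correction tried, from -1.13 under normexp to -3.19 on the spike-in scale. The value rests on 1 probe, since the other Psmb9 probe lay in the background of both arrays (3.65 in Dock8-/- and 3.87 in Dock8+/-). Psmb8 had 219.8 ± 22.3 in Dock8-/- and 628.9 ± 63.0 in Dock8+/-, a difference of -0.45. The immunoproteasome subunits were thus both lower, Psmb9 by the wider margin.

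Nlrc5 encodes the class I transactivator and was the gene with the highest scaled difference of the 10. Its brighter probe had 57.5 ± 6.89 in Dock8-/- and 85.4 ± 9.45 in Dock8+/-, a scaled difference of 0.49, which was -0.57 before scaling and -1.36 on the spike-in scale. The second probe had 4.23 ± 3.93, not well above background, in Dock8-/- and 35.4 ± 5.68 in Dock8+/-, and was at least 1.05-fold lower. That bound is close to the spot SD, and both probes were dim and were lower before scaling, so the second probe does not settle the direction of Nlrc5.

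**Figure D2:**
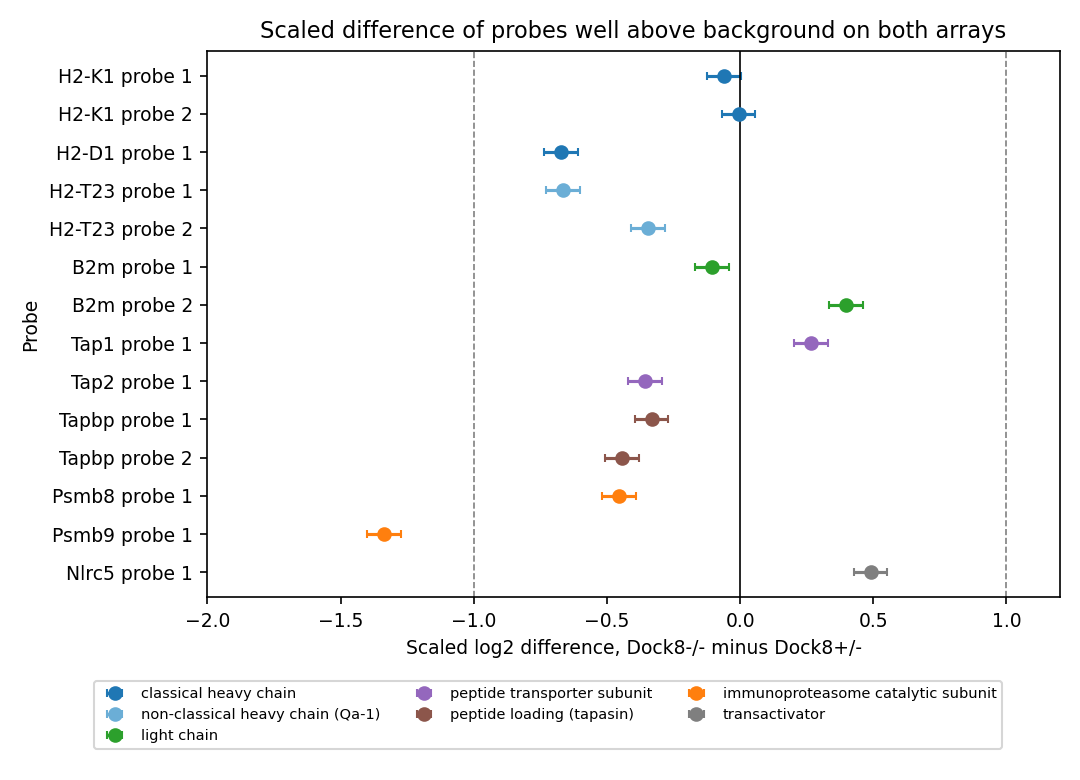
Scaled log2 difference, Dock8-/- minus Dock8+/-, of the 14 probes well above background on both arrays, coloured by role. Bars are the SD of 0.0635 that spot error alone gave in probes with replicate spots, the same for every probe. The errors that Feature Extraction assigns to a spot are wider. Dashed lines mark a 2-fold size. Psmb9 alone lies past the line, at -1.34.

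In order of scaled difference the genes were Psmb9, H2-D1, H2-T23, Psmb8, Tap2, Tapbp, B2m, H2-K1, Tap1 and Nlrc5. Neighbours H2-D1 and H2-T23, Tap2 and Tapbp, and B2m and H2-K1 lay within the SD of 0.0898 expected from spot error for the gap between 2 differences. The other neighbours lay further apart than that, though by little for Psmb8 and Tap2, whose gap was 0.098. The errors that Feature Extraction assigns to a spot are wider than this SD, so the order of close neighbours is not settled. The spread between probes of a gene, which was 0.05 to 0.50 in the 4 genes with 2 measured probes, covers the size of most of these gaps. By role, the heavy and light chains had a median of -0.39, the transport and loading genes -0.33, and the immunoproteasome subunits -0.90.

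**Figure D3:**
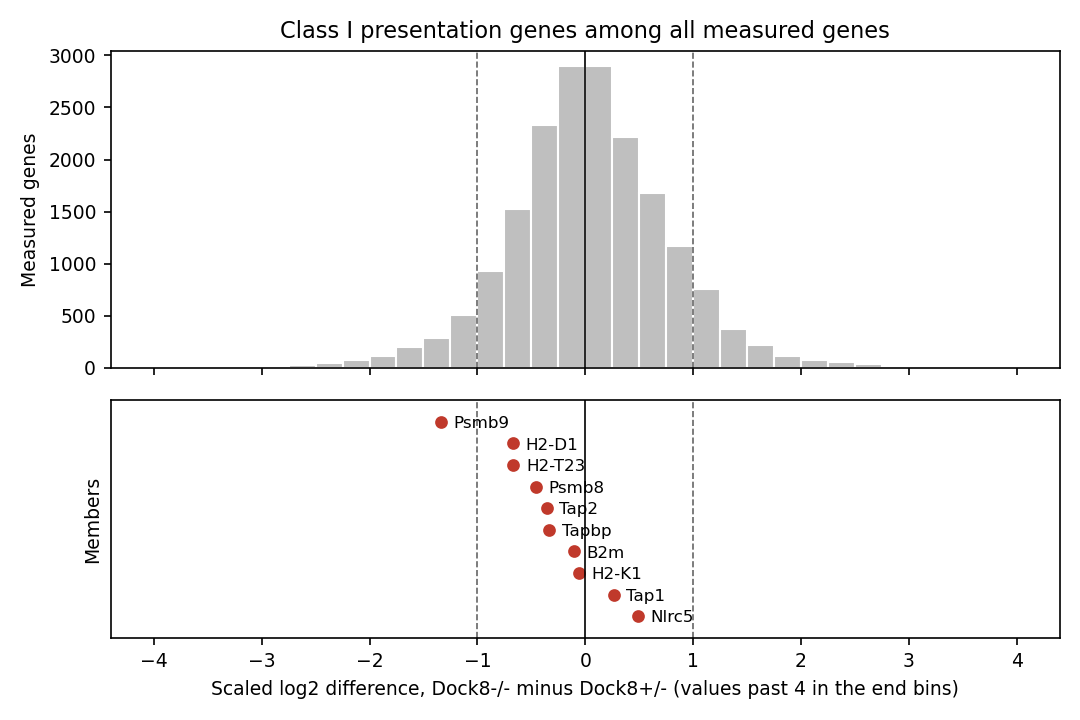
Number of all 18649 measured genes by scaled log2 difference, Dock8-/- minus Dock8+/- (above), with the 10 class I presentation genes on the same axis (below). The members run from -1.34 for Psmb9 to 0.49 for Nlrc5, and 9 of them lie inside the 2-fold lines.

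Tap1 and Psmb9 are neighbours transcribed away from each other. After scaling they differed in direction, at 0.27 and -1.34, but both were lower before scaling and on the spike-in scale. Their RefSeq promoter windows (250 bases before to 50 after the gene start, GRCm38.p6) overlap over 275 bases on opposite strands, so 1 sequence serves for both. Of the 10 genes, 8 had a window in that table, namely all but Tap2 and Nlrc5. The windows were searched on both strands for 4 elements: the interferon-stimulated response element (GAAA, any 2 bases, GAAA), a looser interferon form (GAA, any 2 bases, GAAAC), the palindromic kappaB element, which is the first run of capitals in the H2-K1 window, and the CCAAT box. The 2 interferon forms can overlap. The looser form was added after the windows were seen. H2-K1 and H2-D1 each held the kappaB element and the looser interferon form, and their windows shared a run of 47 bases. Of 32851 windows in the table, 0.0304% held the kappaB element and 1.73% the looser form. The stricter interferon form was found in B2m and H2-T23 and in 3.44% of all windows. None of these 3 elements was found in the windows of Tap1, Psmb9, Psmb8 and Tapbp. Only these fixed patterns were searched, so other forms of a kappaB or interferon site would have been missed. The CCAAT box was found in 7 of the 8 genes and in 37.4% of all windows. The kappaB and interferon matches are in capitals in the windows below, which are shown because genes with the same elements differed unequally (H2-K1 and H2-D1), as did genes that share 1 window (Tap1 and Psmb9).
H2-K1 (chr17:34000298-34000597, minus strand): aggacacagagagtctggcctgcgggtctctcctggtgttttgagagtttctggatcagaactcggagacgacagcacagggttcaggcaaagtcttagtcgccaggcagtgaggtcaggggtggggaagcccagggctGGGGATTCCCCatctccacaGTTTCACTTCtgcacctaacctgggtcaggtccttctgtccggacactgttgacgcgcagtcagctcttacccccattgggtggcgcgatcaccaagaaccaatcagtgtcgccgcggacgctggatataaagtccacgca
H2-D1 (chr17:35262844-35263143, plus strand): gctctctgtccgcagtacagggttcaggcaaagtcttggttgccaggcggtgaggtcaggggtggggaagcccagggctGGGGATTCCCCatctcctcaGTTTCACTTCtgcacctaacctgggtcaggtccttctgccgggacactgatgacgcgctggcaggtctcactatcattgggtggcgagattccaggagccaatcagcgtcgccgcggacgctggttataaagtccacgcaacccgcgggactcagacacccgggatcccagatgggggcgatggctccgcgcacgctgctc
H2-T23 (chr17:36032652-36032951, minus strand): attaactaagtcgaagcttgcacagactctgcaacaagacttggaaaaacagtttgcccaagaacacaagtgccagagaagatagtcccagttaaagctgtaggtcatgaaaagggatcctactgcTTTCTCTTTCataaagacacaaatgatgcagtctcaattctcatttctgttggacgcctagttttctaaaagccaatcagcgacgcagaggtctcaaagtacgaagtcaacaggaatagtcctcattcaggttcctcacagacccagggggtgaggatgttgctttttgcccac
B2m (chr2:122147437-122147736, plus strand): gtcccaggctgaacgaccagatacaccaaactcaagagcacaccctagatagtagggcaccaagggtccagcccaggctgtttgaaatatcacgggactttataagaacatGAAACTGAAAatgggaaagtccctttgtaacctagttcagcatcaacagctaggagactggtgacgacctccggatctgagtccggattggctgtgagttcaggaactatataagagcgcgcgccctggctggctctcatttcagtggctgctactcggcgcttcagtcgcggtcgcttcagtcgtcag
Tap1 (chr17:34187306-34187605, plus strand): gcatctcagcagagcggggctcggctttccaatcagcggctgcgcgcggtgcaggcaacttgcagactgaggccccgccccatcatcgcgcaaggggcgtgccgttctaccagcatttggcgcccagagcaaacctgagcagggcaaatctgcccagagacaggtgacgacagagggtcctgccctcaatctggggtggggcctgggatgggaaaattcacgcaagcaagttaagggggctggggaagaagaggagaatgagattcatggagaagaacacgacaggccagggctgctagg
A match is a run of letters and no measure of binding.

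The other class I heavy chain genes of the H2 region were mostly lower in relative terms. Of 28 listed genes, 26 were on the array and 16 were measured on both arrays, with 13 below 0. At the 2-fold size 2 were lower and 1 was higher, beside 7.03% and 9.08% of all measured genes. Their median was -0.58, against 0.03 for all genes, and it ranged from -0.80 to -0.14 over the other settings relative to the array. H2-T9 had 27.9 in Dock8-/- and 145.7 in Dock8+/-, a scaled difference of -1.32, and H2-T3 had 28.8 and 122.5, at -1.03. H2-Q2 was at -0.85 and H2-Q7, which encodes a Qa-2 chain, at -0.54 on its brightest probe, with probes up to 0.41. In contrast, H2-Q4 had 9667 in Dock8-/- and 12877 in Dock8+/-, a scaled difference of 0.65. H2-M11 was at 1.24, with intensities of 23.5 and 20.8 near the detection limit. The chains of the Q and T groups thus did not share 1 difference, much as H2-K1 and H2-D1 did not.

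Class I-like genes elsewhere in the genome were few but further apart. Fcgrt, the heavy chain of the neonatal Fc receptor, which also pairs with beta-2-microglobulin, had 124.6 in Dock8-/- and 1786 in Dock8+/-, a scaled difference of -2.78. Procr, the endothelial protein C receptor, was at -2.30 and Hfe, a regulator of iron uptake that also pairs with the light chain, at -1.30. Cd1d1 and Mr1, which present lipids and vitamin metabolites, were at -0.14 and -0.06. Of 5 measured genes, 3 were at least 2-fold lower, beside 7.03% of all measured genes, and 0 were higher. Of the 12 genes on the array, 2 more were detected on the Dock8+/- array only and 5 on neither. The median was -1.30, and it ranged from -1.53 to -0.10 over the other settings relative to the array. It was -0.10 with no filter on dim probes, so it depends on which genes pass the filter.

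Of 14 measured peptide loading and trimming genes, 1 was at least 2-fold lower, which is near the 7.03% of all measured genes, and 0 were higher. Their median was -0.29, with 11 below 0 and 3 above, and it ranged from -0.52 to -0.11 over the other settings relative to the array. The lower one was Tapbpl, a tapasin-related peptide editor, with 39.3 in Dock8-/- and 213.2 in Dock8+/- (-1.38). Calr, the chaperone calreticulin, was at -0.71. Lman2, a cargo lectin, was at -0.81, but its 3 probes disagreed in direction, the lowest at -1.12 and the highest at 1.77. Pdia3 was at -0.39 with its other probe at 0.25, and Canx, calnexin, at 0.51 with its other probe at -0.20. Erap1, which trims peptides, had 12.7, not well above background, in Dock8-/- and 39.5 in Dock8+/-. Psmb10, the remaining immunoproteasome subunit, had 3865 in Dock8-/- and 10135 in Dock8+/-, at -0.33, close to Psmb8 rather than to Psmb9. The PA28 activator gene Psme1 was at -0.38, while Psme3 was at 0.24 and Psme4 at 0.65. These genes and Psmb10 belong to a list named inducible proteasome partners, of which 9 were measured. Whether its genes are inducible was not tested, and it also held Pomp and Psmg1 to Psmg4, genes for proteasome assembly. Its median was -0.30, with 6 genes below 0 and 3 above, and 0 passed the 2-fold size. Of the constitutive subunits that the immunoproteasome replaces, Psmb7 was at -0.51, Psmb6 at -0.16 and Psmb5 at -0.13. Among the other 20S core subunits, 11 were measured, their median was 0.00, and 0 passed the 2-fold size in either direction.

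Regulators of class I transcription were mostly lower in relative terms. Of 16 measured genes, 13 lay below 0 and 3 above. At the 2-fold size 3 were lower and 0 higher, beside 7.03% and 9.08% of all measured genes. The median was -0.36, and it ranged from -0.59 to -0.07 over the other settings relative to the array. Rfxank, a subunit of the RFX complex used at both class I and class II promoters, had 22.2 in Dock8-/- and 257.3 in Dock8+/- (-2.47, 1 probe). Nfkb2 was at -1.77 and Irf8, a factor of myeloid cells, at -1.24, with its other probe at -0.03. Irf1, which is induced by interferon-gamma, was at -0.52, Rela at -0.01 and Stat2 at 0.64. A list of interferon and tumour necrosis factor receptor genes also held the kinase genes Jak1 (0.33), Jak2 (0.75) and Tyk2. Over its 8 measured genes, kinases included, the median was 0.32. The receptor genes lay on either side of 0. Ifnar1 was at 0.87 (its probes reaching -0.19), Tnfrsf1b at 0.61 and Ifngr1 at 0.31. Ifnar2 was at -1.02, Tnfrsf1a at -0.85 and Ifngr2 at -0.51. Tyk2 was not well above background in Dock8-/- and was at least 2.74-fold lower. Of 28 measured interferon-stimulated genes outside the class I pathway, 10 were at least 2-fold lower and 2 higher, beside 7.03% and 9.08% of all measured genes. Their median was -0.44. Oas2 (-2.46) and Isg15 (-1.83) were at one end, and Gbp4 (1.51) and Cxcl10 (1.06) at the other.

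**Figure D4:**
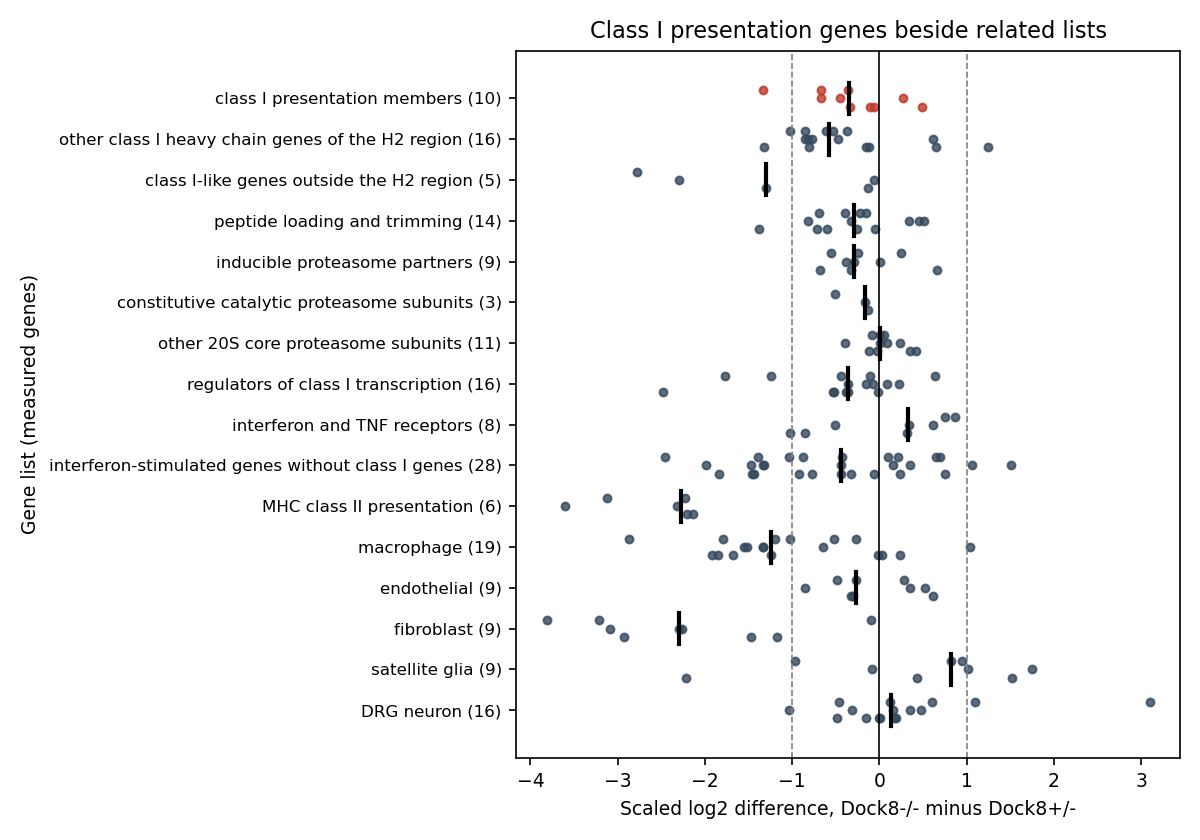
Scaled log2 difference, Dock8-/- minus Dock8+/-, of each measured gene (points) in the class I presentation genes (red) and in related lists and cell markers (dark blue), with the median of each list as a black bar and the number of measured genes in brackets. The class I members have a median of -0.34, the class II genes -2.27 and the macrophage markers -1.25.

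Markers of cells that carry class I molecules differed beside these genes. The background for the 2-fold counts below is 7.03% of all measured genes lower and 9.08% higher. MHC class II genes, which are largely those of antigen-presenting cells, were further apart than the class I genes. All 6 measured class II genes were at least 2-fold lower, from -3.60 for H2-Ab1 to -2.14 for H2-Aa, against 1 of 10 class I genes. Ciita, the class II counterpart of Nlrc5, had 5.32, not well above background, in Dock8-/- and 276.7 in Dock8+/-, at least 8.23-fold lower. Of 19 measured macrophage markers, 12 were at least 2-fold lower and 1 higher, with a median of -1.25 and a summed processed intensity of 20690 in Dock8-/- and 68539 in Dock8+/-. Lyz2, encoding lysozyme, was lowest at -2.87 and Itgam highest at 1.03. Adgre1 was at -1.92, Csf1r at -0.65 with its other probe at 0.39, and Ptprc, the pan-leukocyte gene, at 0.24 with probes from -1.85 to 0.24. None of the macrophage markers was absent from either array. The 9 measured endothelial markers had a median of -0.27, which turned to 0.35 with the mean or the dimmest probe of each gene, and 0 passed the 2-fold size, with Cdh5 at -0.86 and Pecam1 at 0.62. They summed to 7306 in Dock8-/- and 16787 in Dock8+/-. The median of 9 measured fibroblast markers was -2.30, 8 of them passed the 2-fold size as lower, and they summed to 39355 in Dock8-/- and 295987 in Dock8+/-. That median moved to -1.62 as the mean of probes, and ranged down to -2.61 over the other settings relative to the array. Pi16 was lowest at -3.81, while the other probes of Col3a1 (-3.21) and Col1a2 (-2.26) reached -0.42 and 0.05. The median was 0.81 for 9 satellite glia markers, which summed to 112349 in Dock8-/- and 170224 in Dock8+/-. It was 0.13 for 16 DRG neuron markers, which summed to 213451 in Dock8-/- and 450917 in Dock8+/-. The neuron median turned to -0.09 with scaling to the median and under normexp, to -0.10 as the mean of probes and to -0.22 with the dimmest probe. Of the lymphocyte markers, 5 of 14 were measured on both arrays, with a median of 0.69, 6 more on the Dock8+/- array only and 3 on neither, and that median turned below 0 in some settings (down to -0.73). Medians were 0.48 for 10 neutrophil, -0.14 for 9 Schwann cell and -3.81 for 4 skeletal muscle markers. Of 8 dendritic cell markers, 3 were measured on both arrays, namely Flt3 at -0.98, Zbtb46 at -0.14 and Batf3 at 0.61, and 3 more on the Dock8+/- array only. Their median of -0.14 ranged from -1.29 to 0.38 over the other settings relative to the array. Every list median named here and in the paragraphs above was below 0 before scaling and on the spike-in scale. The part of these cells in the class I values was not tested.

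**Figure D5:**
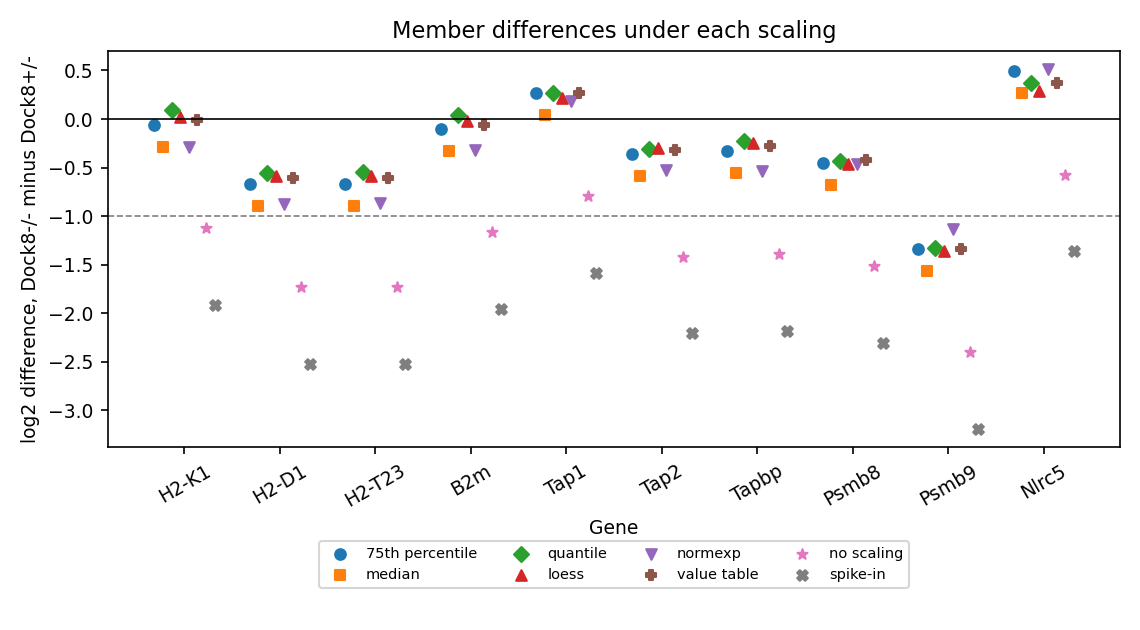
Difference of each class I presentation gene on the log2 scale, Dock8-/- minus Dock8+/-, under 8 scalings or background settings (symbols). Spike-in scaling and no scaling put all 10 genes below 0, the other settings keep Psmb9 below -1, and H2-K1 and B2m lie on either side of 0.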

How the data were processed

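Intensities were measured on 1 Agilent one-colour array per genotype, both on the same slide, and the members and gene lists were chosen with earlier results of these data known. The authors deposited scanner files of Agilent Feature Extraction (version 10.7.1.1 per the file headers, 9.5.1.1 per the submitters' processing notes). Their processed intensity is linear and, per the file headers, background-subtracted and detrended, with a surrogate value for dim spots. A deposited value table of intensity was found to be quantile normalised (98.9% of sorted values equal in both columns at tolerance 0, median 27.9 in each, correlation of log2 values with the scanner files of at least 0.999). It is linear, with the direction of intensity and no centring seen, and served as an alternative. The labels' protocols name Isogen for RNA isolation and a low-input amplification kit.

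Here the processed intensity was put on the log2 scale, spots of the same probe were averaged, and the 75th percentile of the array's non-control probes was taken off. Spots marked non-uniform (1 in Dock8-/- and 3 in Dock8+/-) were dropped, and 0 were saturated. A gene took its brightest probe by the mean of both arrays and is called measured if Feature Extraction marked that probe as well above background on the pair of arrays. Where it did so on 1 array only, a bound was taken against the higher of the dim probe and the lowest detected signal of the dim array (16.1 for Dock8-/-, 17.4 for Dock8+/-). Members were matched by gene name, other probes by RefSeq accession, symbol or older symbol (32975, 10221 and 520 probes), and 12867 kept the file's name. With 1 array per group no test was run. All members are named. Of the pathway lists any measured gene could be named, and of the marker lists up to 3 genes with the largest differences and a set of defining markers. Not every such gene is given, and some lists appear by their median alone. Col1a2 and Itgam fall outside this and were chosen after their values were seen, to show the spread within their lists. Sequences are those of the scanner files and of RefSeq (GRCm38.p6). Tools were limma 3.58.1 in R 4.3.3 (normexp with an offset of 50, loess with a span of 0.3, quantile normalisation), pandas 2.3.3 and numpy 2.4.6. The scaling was tested on simulated data. Alternatives were other scalings, background correction, detection filters, probe choices and sizes of 1.5-fold and 3-fold.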

Additional observations from a re-analysis of the deposited data

How the results depend on the processing

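No paired analysis was possible because only 1 array per genotype was analysed, which also leaves no replicate to omit. A value is called moved if its shift reached 0.0635, the SD of a difference of single spots, and for all of these the cause was not tested unless stated. The count of genes at least 2-fold lower was 1, but 10 under spike-in scaling, 8 with no scaling, 3 at a 1.5-fold size and 0 at a 3-fold size, the last 2 by construction. The shares of all measured genes in those settings were 87.4%, 52.2%, 16.9% and 2.27%. The count at least 2-fold higher was 0 under every alternative run. The median of the 10 genes was -0.34, but -0.57 with scaling to the median, -0.27 under quantile normalisation, -0.28 under loess, -0.50 under normexp, -1.41 with no scaling and -2.20 under spike-in scaling. The first and the last 2 of these are constant shifts of all genes, whose median became -0.20, -1.03 and -1.82, so the members' median minus that of all genes stayed at -0.37. It was -0.30 under quantile normalisation, -0.28 under loess and -0.49 under normexp. Over all genes, 1311 were at least 2-fold lower and 1694 higher. These counts were 2125 and 999 with scaling to the median, 865 and 703 under normexp, 9728 and 221 with no scaling, and 16293 and 57 under spike-in scaling. They were 2758 and 5437 with no filter on dim probes, 2578 and 2216 with detection on at least 1 array, 2068 and 3403 with another detection flag, 3147 and 3890 at 1.5-fold, and 424 and 486 at 3-fold. Of the single-gene values under the alternatives 56 moved and 84 did not, and of the list medians 130 moved and 150 did not. H2-K1 and B2m crossed 0 between settings, Tap1 and Nlrc5 did so only with no scaling and spike-in scaling, and the other 6 genes stayed below 0 throughout. Dim probes (both Nlrc5 probes and the second probes of H2-T23, B2m, Tap1 and Tapbp) were read near background.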

Other observations

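The H2 region of chromosome 17 holds many genes with no part in antigen presentation, and values were read between the Tapbp and H2-T23 probes (mm9, 34063096 to 36168081). Of 123 measured genes there, 100 were not class I or class II genes by name. Some of the 100 have a transcript identifier in place of a gene name, so class I transcripts may be among them. The median scaled difference of the 100 was -0.21, against 0.03 over all measured genes. Of the 100, 12 were at least 2-fold lower in Dock8-/- (12.0%, beside 7.03% of all measured genes) and 2 were higher. The genes named here were chosen after their values were seen. Cfb, encoding complement factor B, was lowest at -2.72, followed by Tnxb, a matrix glycoprotein gene, at -2.23, and by the macrophage gene Aif1 at -1.79 and the lymphotoxin gene Ltb at -1.76. The 2 higher genes were Prr3 at 1.81 and Ly6g6d at 1.28. C4b, encoding complement component C4, was at 0.77.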
